A study of Mus musculus with 20 samples.

Results

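The question addressed here is which sex differences of the mouse liver depend on the strain. It was answered with a single contrast of gene expression over 20 livers, the female minus male difference in C3 mice less the female minus male difference in B6 mice, called the interaction below. A positive interaction means that expression in females relative to males was higher in C3 than in B6, and a negative one that it was lower. All autosomal genes that passed a filter on low counts were tested, which gave 13259 of the 23974 autosomal gene loci in the count table. The table holds 25444 loci on all chromosomes. Members were thus chosen by chromosome and by expression, without use of the contrast.

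The groups were B6 females, B6 males, C3 females and C3 males, with 5 mice each. B6 stands for the inbred strain C57BL/6N and C3 for the inbred strain C3H/HeN, and no transgene or treatment is named for any mouse. All mice were 20 weeks old, came from the same supplier and had changed diet in the weeks before collection. Because each sex had a room of its own, effects of sex and of room cannot be told apart. Each library was strand-specific total RNA from the left lateral lobe of 1 mouse, depleted of ribosomal RNA, and the livers were collected in the course of a morning. Libraries held 27370921 to 46835745 counts and were sequenced in 3 pools of 8, 5 and 7 libraries, each with 1 or 2 livers of every group. Summed expression of 6 hepatocyte markers, among them albumin, was 74205 to 160113 CPM (counts scaled to library size), so the defining markers of the labelled tissue were present.

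The adult mouse liver is sexually dimorphic in many autosomal genes. Much of this difference is set by the pattern in which the pituitary releases growth hormone, pulsatile in males and more continuous in females, which acts through the growth hormone receptor and the transcription factor STAT5b. Cytochromes P450, major urinary proteins and enzymes of lipid metabolism are among the best known sex-biased products of the hepatocyte. B6 and C3 are long-standing contrasts in liver biology, since C3 males develop spontaneous hepatocellular tumors far more often than B6 males.

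At an adjusted p under 0.001 and a log2 interaction beyond 0.5 in either direction, 52 genes were called, which is 0.392% of the 13259 genes tested. Of these, 35 had a higher female minus male difference in C3 (0.264% of genes tested) and 17 a lower one (0.128%). With the adjusted p relaxed to 0.05, called the wider threshold below, 291 genes passed (2.19%), 198 with a higher difference (1.49%) and 93 with a lower one (0.701%). The interaction of the 52 genes had a median size of 1.73 on the log2 scale, against 0.144 over all genes tested, and ran from 0.53 to 5.37.

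The 52 genes were then described by their sex difference within each strain. At the same thresholds 829 genes were sex-biased in B6 (6.25%) and 898 in C3 (6.77%). Of the 52, 24 were sex-biased in B6 and not in C3, and 20 of these were male-biased. A further 15 were sex-biased in C3 and not in B6, 9 female-biased and 6 male-biased. In 6 genes the bias was called in both strains in the same direction and differed in size, 1 gene (Meg3) was called in opposite directions, and 6 were called in neither strain. Because these differences are parts of the interaction itself, they say where the change lies and add no support to it.

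**Figure D1:**
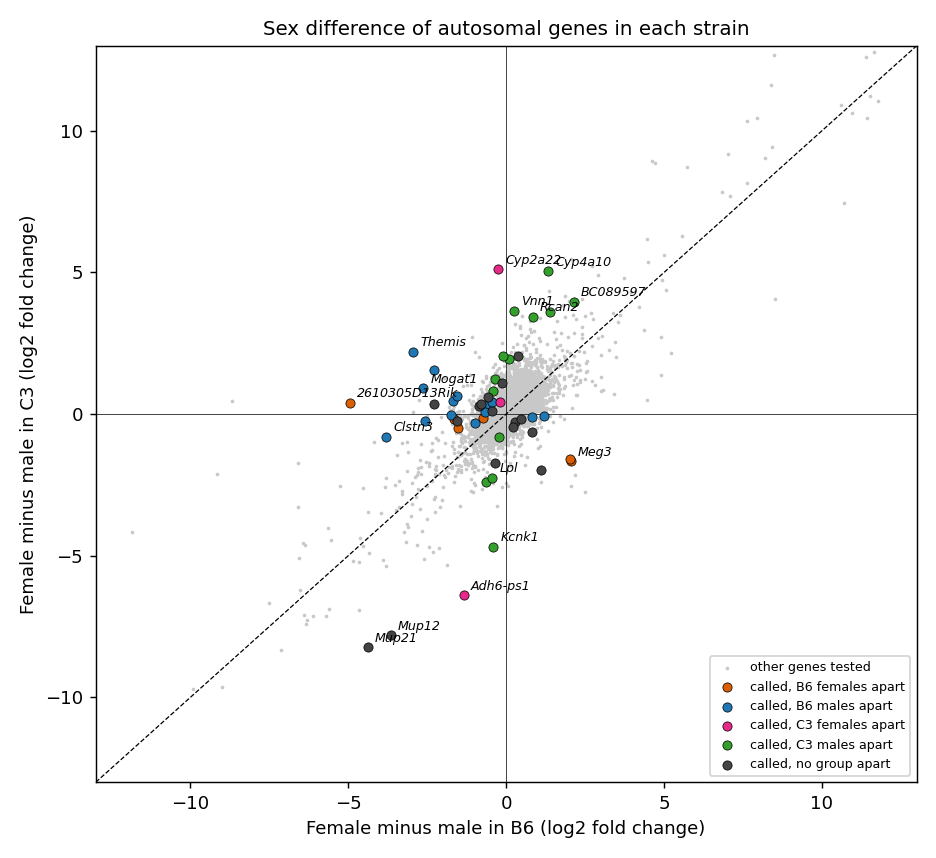
Female minus male log2 fold change in B6 (x axis) against that in C3 (y axis) for 13259 autosomal genes, with the 52 called genes coloured by the group whose mean stood apart. Genes on the dashed line had the same sex difference in both strains; 12 of the 14 genes with B6 males apart lie left of 0 in B6, with differences from -0.80 to 2.20 in C3, and all 13 with C3 males apart lie farther from 0 in C3 than in B6.

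To locate the change, the means of the 4 groups on the log2 CPM scale were sorted for each gene, and the top or bottom group was said to stand apart when its gap to the next group exceeded the range of the other groups together. B6 males stood apart in 14 of the 52 genes, 12 times as the highest group, and C3 males in 13, 9 times as the lowest group. B6 females stood apart in 6 genes, C3 females in 3, and in 16 no group did. Over all 13259 genes tested, B6 males stood apart in 9.16%, C3 males in 14.2%, B6 females in 8.55% and C3 females in 9.06%. At the wider threshold the counts were 54 for B6 males, 48 for C3 males, 34 for B6 females, 34 for C3 females and 121 for no group. When a group was instead said to stand apart from the calls of the within-sex and within-strain contrasts, B6 males had 14 genes and C3 males 7. In the strain comparisons, 1260 genes (9.5%) differed between C3 and B6 in females and 1291 (9.74%) in males. Of the 52 genes, 42 were called in the males and 21 in the females, 14 of them in both.

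**Figure D2:**
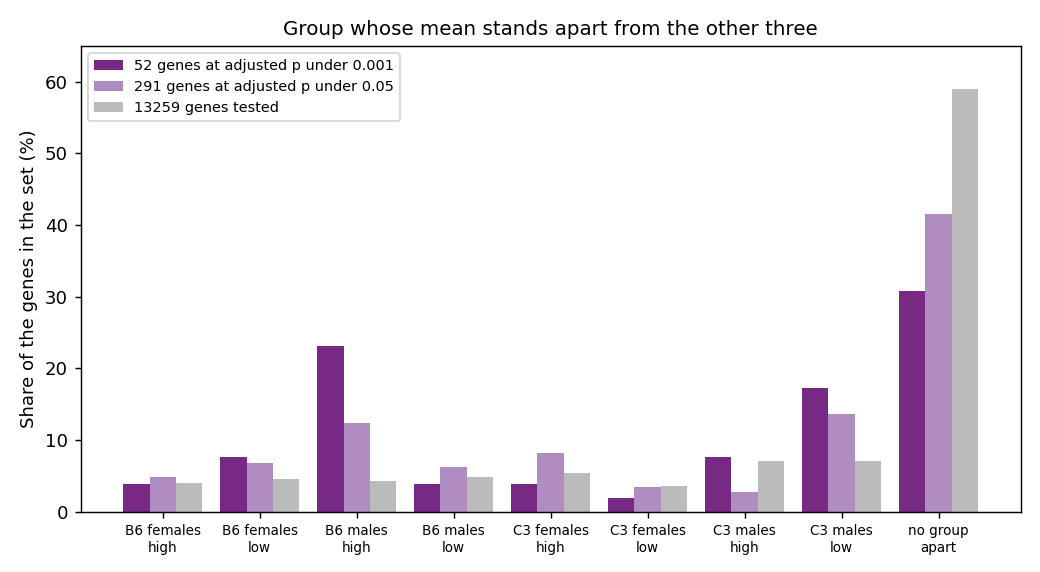
Share of genes (y axis, %) in which each group's mean stood apart as the highest or the lowest (x axis), for the 52 called genes, the 291 genes at the wider threshold and all 13259 genes tested. B6 males high took 23.1% of the called genes against 4.34% of genes tested, and C3 males low took 17.3% against 7.13%.

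The 12 genes in which B6 males were highest were Aatk, Ppp1r9a, Clstn3, Lgals1, Hr, Cav1, Themis, Uck1, Slc25a10, Wwtr1, Mogat1 and Coq7. They include a kinase, scaffold and membrane proteins, a lectin, transcriptional coregulators and metabolic enzymes, and Mogat1 alone of them is in a gene list examined here. Of 20 fits without 1 liver, Uck1 kept its call in 17, Wwtr1 in 4 and Coq7 in 3. Aatk, the apoptosis-associated tyrosine kinase (chromosome 11 from 119868632 to 119908459, reverse strand of mm9), was at 12.5, 13.2, 15.4, 12.8 and 15.9 CPM in the 5 B6 males and at 2.54, 2.79, 2.16, 2.39 and 1.96 CPM in the B6 females. In C3 it was at 2.81, 2.35, 2.80, 1.59 and 2.28 CPM in females and 2.24, 2.16, 3.0, 3.56 and 2.61 CPM in males. Every B6 male lay above every other liver, and the other groups overlapped. The interaction of Aatk was 2.32 (SE 0.20, adjusted p = 1.54e-06), with a female minus male log2 difference of -2.57 in B6 and -0.25 in C3.

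Clstn3, which encodes the membrane protein calsyntenin 3 (chromosome 6 from 124380774 to 124414802, reverse strand), had the same form with a larger range. Its CPM values were 37.3, 21.1, 35.2, 38.5 and 21.7 in B6 males, against 1.36 to 3.71 in B6 females, 1.02 to 2.12 in C3 females and 1.66 to 3.21 in C3 males. No liver of another group came near the B6 males, and the interaction was 3.01 (SE 0.30, adjusted p = 1.04e-05). Ppp1r9a, the phosphatase scaffold neurabin (chromosome 6 from 4853320 to 5115661, forward strand), was at 13.6 to 19.5 CPM in B6 males, 3.99 to 6.37 CPM in B6 females, 2.85 to 4.26 CPM in C3 females and 1.89 to 3.14 CPM in C3 males, with an interaction of 2.16 (SE 0.20, adjusted p = 4.10e-06). Cav1, the main coat protein of caveolae, was at 9.11 to 13.6 CPM in B6 males and at 2.45 to 3.6, 2.18 to 3.21 and 2.36 to 3.54 CPM in B6 females, C3 females and C3 males, with an interaction of 1.71 (SE 0.21, adjusted p = 8.63e-05). Lgals1, the galactose-binding lectin galectin-1, was at 19.9 to 49.2 CPM in B6 males and 3.34 to 4.26 CPM in C3 males, with an interaction of 2.21 (SE 0.26, adjusted p = 5.90e-05). For each of these 5 genes the 5 livers of B6 males did not overlap those of C3 males. Over all autosomal genes tested, the males of the strains did not overlap in 15.2%. The 5 genes were grouped by their high mean in B6 males, so this separation adds no support to their calls. The same holds for other called genes described below by a group that lay apart.

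Lower-expressed members of this group were Hr, the hairless corepressor, and Themis, a gene known from thymocyte selection. Themis was at 4.46, 3.92, 4.51, 4.27 and 4.88 CPM in B6 males and at 0.217 to 0.944 CPM in B6 females, while 2 of the 5 C3 male libraries held no count and the others reached at most 5 counts. Its interaction was 5.13 (SE 0.66, adjusted p = 0.000168). The summed level of 6 T and NK cell markers was 0.918 to 3.13 CPM in B6 males, 2.03 to 4.03 in B6 females, 1.26 to 2.31 in C3 females and 0.509 to 0.950 in C3 males. None of the 5 markers tested passed the wider threshold. The part of these cells in the level of Themis was not tested. In bulk tissue such as this, fewer cells of a type and less RNA per cell cannot be told apart.

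The 9 genes in which C3 males were lowest were BC089597, Rcan2, Colec12, Tox, Ddah1, Vnn1, Cdpf1, Cd36 and Cyp4a10. The call of Cdpf1 was kept in 11 of 20 fits without 1 liver. BC089597 (chromosome 10 from 127303532 to 127314375, forward strand) had the smallest p of the autosomal genes. It was female-biased in both strains, with 263, 276, 201, 155 and 143 CPM in B6 females and 54.9, 31.9, 55.3, 68.5 and 28.6 CPM in B6 males, 132, 219.6, 246, 117 and 124 CPM in C3 females and 11.1, 7.49, 7.61, 13.6 and 9.49 CPM in C3 males. C3 males lay below every other liver, while the females of the strains overlapped. The female minus male log2 difference was 2.14 in B6 and 3.97 in C3, and the interaction 1.83 (SE 0.13, adjusted p = 3.87e-07). Rcan2, an inhibitor of the phosphatase calcineurin (chromosome 17 from 43938800 to 44176465, forward strand), was at 1.04, 0.979, 1.02, 0.808 and 0.964 CPM in C3 males, against 6.56 to 17.5 CPM in C3 females, 5.76 to 8.30 CPM in B6 males and 10.01 to 15.1 CPM in B6 females. C3 males were again apart from all other livers, and the interaction was 2.60 (SE 0.21, adjusted p = 5.67e-07). Colec12, a scavenger receptor of the collectin family (chromosome 18 from 9707646 to 9877993, forward strand), fell to 40.6 to 54.4 CPM in C3 males from 70.0 to 89.2 CPM in C3 females, while B6 males at 111 to 129.9 CPM were above B6 females at 78.4 to 98.5 CPM. Its interaction was 1.23 (SE 0.099, adjusted p = 5.67e-07).

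Of the remaining genes with C3 males lowest, Tox, an HMG-box transcription factor, had an interaction of 2.20 (SE 0.24, adjusted p = 2.92e-05) and Ddah1, which degrades methylated arginines that inhibit nitric oxide synthase, one of 1.59 (SE 0.21, adjusted p = 0.000223). The call of Ddah1 was kept in 19 of 20 fits without 1 liver and lost in the other, with an adjusted p of 0.00111 without C3 male 3. Tox was at 0.300 to 0.785 CPM in C3 males and 4.70 to 6.81 CPM in C3 females. C3 males also had the lowest T and NK cell marker sum given above, and the part of these cells in the level of Tox was not tested.

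Promoter sequences are shown for 3 genes whose values are given in full, with B6 males highest or C3 males lowest, whose promoter holds a STAT5 motif or a nuclear receptor half-site. Others with such a motif, among them Wwtr1, Coq7 and Gimd1, are not shown. RefSeq promoters (GRCm38.p6, 250 bases before to 50 after the transcription start) were found for 36 of the 52 genes. On either strand, the STAT5 motif TTCNNNGAA lay in a promoter of 3 of these 36 genes (8.33%), against 9.55% of the 27025 genes with a promoter in the table. The nuclear receptor half-site AGGTCA lay in 8 of the 36 (22.2%), against 18.1% of all. Capitals mark the motif, which is AGGTCA in BC089597, its reverse complement in Cd36 and the STAT5 motif in Aatk.
BC089597 (chr10:127866226-127866525, forward strand): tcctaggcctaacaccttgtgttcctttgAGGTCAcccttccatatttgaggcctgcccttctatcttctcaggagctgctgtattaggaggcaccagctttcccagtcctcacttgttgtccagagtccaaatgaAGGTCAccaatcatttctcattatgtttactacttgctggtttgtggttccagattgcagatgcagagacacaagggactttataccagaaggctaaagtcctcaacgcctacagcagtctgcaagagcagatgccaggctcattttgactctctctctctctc
Cd36 (chr5:17835847-17836146, reverse strand): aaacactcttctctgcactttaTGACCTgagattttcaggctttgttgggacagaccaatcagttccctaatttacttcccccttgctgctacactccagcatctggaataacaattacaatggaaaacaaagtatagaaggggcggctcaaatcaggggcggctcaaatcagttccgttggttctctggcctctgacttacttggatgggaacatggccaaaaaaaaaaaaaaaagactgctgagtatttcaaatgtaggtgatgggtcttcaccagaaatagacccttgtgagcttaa
Aatk (chr11:120017105-120017404, reverse strand): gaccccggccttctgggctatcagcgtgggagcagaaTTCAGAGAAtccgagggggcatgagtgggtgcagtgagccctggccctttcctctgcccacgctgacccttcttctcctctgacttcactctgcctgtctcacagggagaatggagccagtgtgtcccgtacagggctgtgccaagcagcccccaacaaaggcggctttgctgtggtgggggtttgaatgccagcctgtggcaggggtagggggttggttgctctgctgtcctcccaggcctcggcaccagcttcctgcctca
The half-sites of BC089597 start 221 and 114 bases before the transcription start and that of Cd36 starts 228 bases before it, and the STAT5 motif of Aatk, in 1 of 4 listed promoters, starts 213 bases before it. A match of letters is not a measured binding site.

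**Figure D3:**
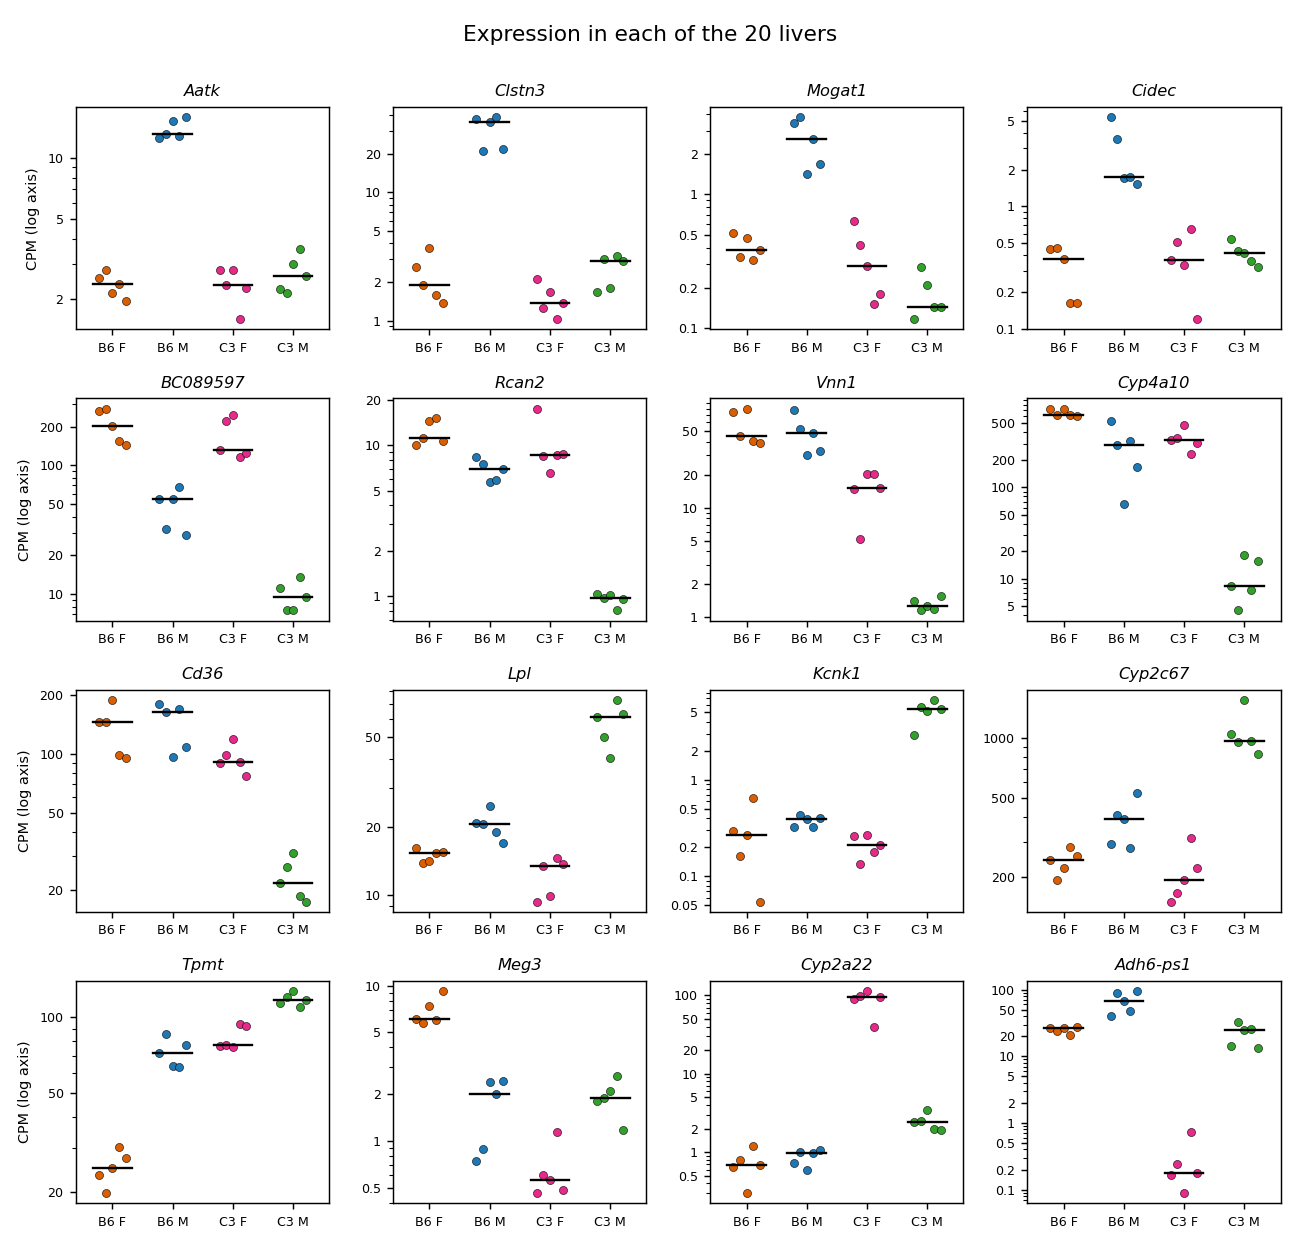
CPM on log axes in each of the 20 livers for 16 genes, with points for livers, colours for groups and bars for the median of 5. In the first row B6 males are highest, in the second row and for Cd36 C3 males are lowest, for Lpl, Kcnk1 and Cyp2c67 C3 males are highest, and in the last row a group of females is the extreme one.

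Lipid metabolism held 5 of the 12 called genes that are in a gene list. Of 76 genes tested in the lists for lipogenesis, fatty acid oxidation with ketogenesis, and lipid uptake with lipid droplets, 5 were called (6.58%), 4 higher (Mogat1, Vnn1, Cyp4a10 and Cd36) and 1 lower (Lpl). At the wider threshold 16 passed (21.1%), 15 of them higher. The interaction was above 0 in 66 of the 76 (86.8%), against 51.3% of all genes tested, and its median was 0.34, against 0.01. These lists are those of lipid metabolism that held a called member, so the shares depend on that choice. None was called by edgeR among elongases and desaturases (13 tested, median 0.22), acyl-CoA thioesterases (10, 0.23), cholesterol synthesis and uptake (22, 0.39) or apolipoproteins (24, 0.06). An unadjusted p under 0.05 was found for 8 of the elongases and desaturases (61.5%). In the same order it was found for 2 (20%), 3 (13.6%) and 7 (29.2%) genes of the other lists, against 16% of all genes tested. At the wider threshold 1 thioesterase and 1 cholesterol gene passed, both higher, and no other gene of these. By list, lipogenesis had 19 members tested with a median of 0.83 and 4 genes at the wider threshold, all higher, and 16 of the 19 had an unadjusted p under 0.05, against 16% of all genes tested. Fatty acid oxidation had 32 with a median of 0.28 and 7 genes, all higher. Lipid uptake and droplets had 25 with a median of 0.26, with 4 genes higher and 1 lower.

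The group behind these shared directions was not the same for all lipid genes. For Vnn1, Cyp4a10 and Cd36, C3 males were the lowest group. Vnn1, the pantetheinase that releases vitamin B5 and a known target of PPAR-alpha, was at 1.39, 1.15, 1.26, 1.19 and 1.57 CPM in C3 males and at 14.9, 5.16, 20.3, 20.2 and 15.0 CPM in C3 females. Its CPM values in B6 were 39.0 to 80.2 in females and 30.3 to 77.4 in males, which overlapped, while both groups lay above the C3 females. The interaction was 3.41 (SE 0.46, adjusted p = 0.000255), and the call was kept in 17 of 20 fits without 1 liver, with an adjusted p of up to 0.00126 without B6 male 1. Cyp4a10, a fatty acid omega-hydroxylase (chromosome 4 from 115190892 to 115206254, forward strand), was at 8.39, 4.52, 18.3, 7.60 and 15.8 CPM in C3 males, 332, 343, 484, 231 and 303 CPM in C3 females, 527, 289, 65.2, 318 and 165 CPM in B6 males and 726, 619, 715, 619 and 607 CPM in B6 females. All groups but B6 males and C3 females were separate, and B6 males varied most. Its interaction was 3.71 (SE 0.56, adjusted p = 0.000854), and the call was kept in 3 of 20 fits without 1 liver, with an adjusted p of up to 0.00332 without B6 male 1. In a limma fit to log2(TPM + 1) no gene of the fatty acid oxidation list was called. Cd36, which takes up long-chain fatty acids, was at 21.7, 26.3, 31.0, 18.8 and 17.5 CPM in C3 males and 89.3, 99.0, 119, 91.0 and 76.9 CPM in C3 females, with 94.9 to 189 CPM in B6 females and 95.8 to 180.3 CPM in B6 males. C3 males lay below every other liver, and no sex difference was called in B6. The interaction of Cd36 was 2.14 (SE 0.30, adjusted p = 0.00043), kept in 12 of 20 fits without 1 liver, with an adjusted p of up to 0.00187 without B6 male 1.

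Lpl, the lipoprotein lipase that releases fatty acids from circulating triglyceride, moved the other way (chromosome 8 from 71404454 to 71430831, forward strand). It was at 61.2, 50.2, 40.4, 73.4 and 63.3 CPM in C3 males and at 9.39 to 14.7 CPM in C3 females, 17.1 to 24.9 CPM in B6 males and 13.9 to 16.1 CPM in B6 females. C3 males were thus the high group for Lpl and the low group for Cd36, Vnn1 and Cyp4a10. The interaction was -1.80 (SE 0.21, adjusted p = 5.97e-05), and within pools it was -1.39, -2.17 and -2.11.

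Mogat1, a monoacylglycerol acyltransferase of triglyceride synthesis (chromosome 1 from 78507635 to 78534748, forward strand), was instead high in B6 males. Its CPM was 3.43, 3.76, 1.42, 2.59 and 1.69 in B6 males, 0.325 to 0.511 in B6 females, 0.150 to 0.628 in C3 females and 0.116 to 0.288 in C3 males, with no overlap between B6 males and any other group. The interaction was 3.54 (SE 0.53, adjusted p = 0.000801), and the call was kept in 5 of 20 fits without 1 liver, with an adjusted p of up to 0.00326 without C3 female 1. The following genes at the wider threshold, chosen after their values were seen, also had their highest mean in B6 males. Cidec, a protein of large lipid droplets, was at 5.32, 3.52, 1.69, 1.73 and 1.53 CPM in B6 males and at 0.163 to 0.462, 0.120 to 0.661 and 0.321 to 0.542 CPM in B6 females, C3 females and C3 males, with an interaction of 3.03 (SE 0.59, adjusted p = 0.00635). Plin4, another droplet protein, was at 8.69 to 11.5 CPM in B6 males and at most 5.69 CPM in any other liver, with an interaction of 1.23 (SE 0.30, adjusted p = 0.0295). Pparg, the nuclear receptor of adipogenesis, was at 18.9, 25.1, 15.0, 17.1 and 15.8 CPM in B6 males and 7.51, 6.15, 15.0, 9.13 and 5.28 CPM in B6 females, while no C3 female exceeded 0.605 CPM and no C3 male 0.214 CPM. Its interaction was 2.52 (SE 0.48, adjusted p = 0.00544), and it was lower in C3 than in B6 in both sexes. The female minus male log2 difference of Pparg was -1.15 in B6, which passed the threshold, and 1.37 in C3, which did not.

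Of the adipocyte markers, Cidec and Cfd were highest in B6 males. The summed CPM of 6 markers was 2.30 to 9.17 in B6 males, 0.190 to 0.531 in B6 females, 0.120 to 0.661 in C3 females and 0.357 to 0.619 in C3 males. This sum was made up by Cidec and by Cfd, the complement factor adipsin. Cfd was at 0.563 to 3.65 CPM in B6 males and had no count in any other liver. The defining markers were at or near 0 in B6 males, with no count for Lep and Plin1 and at most 1 count per library for Adipoq and 5 for Retn. The interaction of Cfd could not be estimated by edgeR because the other groups held no count. Of all genes tested, 32 had at least 1 group with no count.

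For lipogenesis the change was spread over the groups. The genes at the wider threshold beside Mogat1 were Fasn, Gpam and Me1, chosen after their values were seen. Fasn, fatty acid synthase, had 542 ± 244 CPM (SD, n = 5) in B6 females, 803 ± 374 CPM in B6 males, 1071 ± 365 CPM in C3 females and 655 ± 142 CPM in C3 males. Its sex difference was called in neither strain, and its interaction was 1.37 (SE 0.34, adjusted p = 0.0352). Me1, the malic enzyme that supplies NADPH, was at 73.3 to 156 CPM in B6 females and 112 to 296 CPM in B6 males, against 113 to 259 and 156 to 234 CPM in C3 females and males, which overlapped. For Me1 and for Gpam, the first acyltransferase of glycerolipid synthesis, B6 females were the group apart, as the lowest, with interactions of 1.10 (SE 0.29, adjusted p = 0.0431) and 1.03 (SE 0.25, adjusted p = 0.0292). Plin2, the main droplet coat protein of hepatocytes, had an interaction of 1.09 (SE 0.19, adjusted p = 0.00289), and was chosen after its values were seen.

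**Figure D4:**
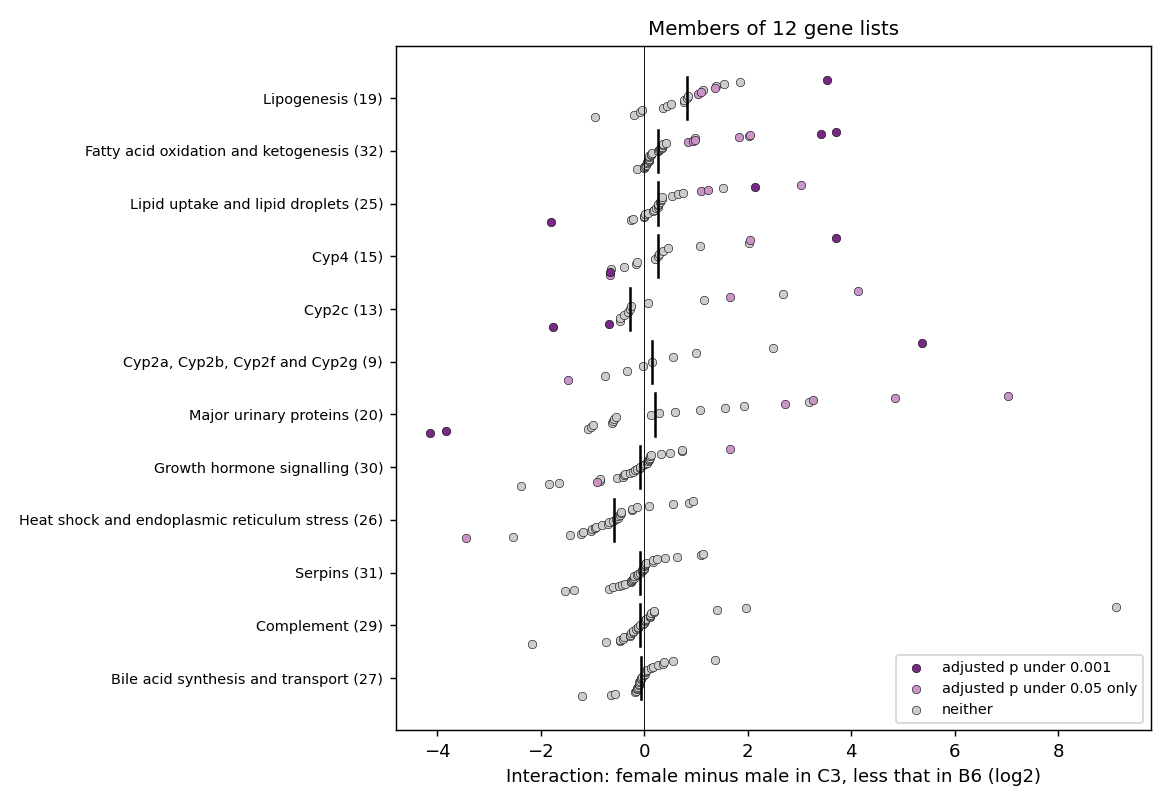
Interaction (x axis, log2) of the members tested in 12 gene lists (rows, with the number tested), with points coloured by threshold and a bar at the list's median. In the lipid lists shown, which are those with a called member, most points lie right of 0. In the lists of major urinary proteins and Cyp2c genes called members lie left of 0, and the Cfd point near 9 in the complement row could not be tested by edgeR.

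Genes in which females stood apart were fewer. Tpmt, the enzyme that methylates thiopurine drugs (chromosome 13 from 47118912 to 47138586, reverse strand), was at 23.4, 19.9, 24.9, 30.4 and 27.4 CPM in B6 females, 72.0, 85.5, 64.1, 63.4 and 77.1 CPM in B6 males, 76.6, 77.1, 76.2, 94.3 and 92.5 CPM in C3 females and 114, 120.5, 128, 109.7 and 117 CPM in C3 males. B6 females lay far below the other livers and C3 males above them, and the interaction of Tpmt was 1.05 (SE 0.078, adjusted p = 3.87e-07). The female minus male log2 difference was -1.53 in B6 and -0.48 in C3, where it passed on p but not on size. The other genes with B6 females lowest were 2610305D13Rik, Cxadr, which encodes a cell junction protein, and Fam131c. Of 20 fits without 1 liver, Cxadr kept its call in 11 and Fam131c in 2.

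C3 females stood apart in Cyp2a22, Anxa5 and Adh6-ps1. Cyp2a22, a cytochrome P450 (chromosome 7 from 27716650 to 27724405, reverse strand), was at 89.7, 97.7, 115, 40.1 and 96.9 CPM in C3 females and at 1.93 to 3.42 CPM in C3 males, 0.303 to 1.19 CPM in B6 females and 0.588 to 1.07 CPM in B6 males. It was the gene with the largest interaction among those called, 5.37 (SE 0.47, adjusted p = 1.67e-06), and had no called sex difference in B6. Of the 9 tested genes of the Cyp2a, Cyp2b, Cyp2f and Cyp2g subfamilies it was the only one called. Adh6-ps1, annotated as an alcohol dehydrogenase pseudogene (chromosome 3 from 138037085 to 138051255, forward strand), was at 0.165, 0.244, 0.0896, 0.721 and 0.180 CPM in C3 females and 14.3, 32.9, 24.7, 25.5 and 13.4 CPM in C3 males, with 26.2, 24.0, 26.2, 21.2 and 27.8 CPM in B6 females and 39.7, 89.0, 67.3, 47.6 and 96.2 CPM in B6 males. It was male-biased in both strains and almost absent from C3 females, with an interaction of -5.05 (SE 0.39, adjusted p = 4.33e-07). Anxa5, the phospholipid-binding annexin A5, showed a small interaction of 0.63 (SE 0.068, adjusted p = 2.89e-05), with 92.1 to 118 CPM in C3 females and 70.3 to 83.4 CPM in C3 males. Its sex differences were below the size required for a call in each strain.

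Called genes lay within 500 kb of another called gene in 3 places, which held 6 of the 52 (11.5%), against 4.46% of genes tested with a called gene that near. On chromosome 12 these were the noncoding RNAs Meg3 and Rian, expressed from the maternal copy of an imprinted domain, both lower. Meg3 (chromosome 12 from 110779206 to 110809939, forward strand) was at 6.08, 5.73, 7.35, 5.96 and 9.26 CPM in B6 females, 0.737, 0.887, 2.38, 2.0 and 2.42 CPM in B6 males, 0.463, 0.598, 0.560, 1.14 and 0.480 CPM in C3 females and 1.82, 1.9, 2.10, 2.61 and 1.18 CPM in C3 males. It was female-biased in B6 and male-biased in C3, the only gene called in opposite directions, with an interaction of -3.71 (SE 0.42, adjusted p = 4.23e-05). Rian (chromosome 12 from 110842155 to 110899921, forward strand) ran from 4.56 to 8.81 CPM in B6 females and 0.481 to 3.67 CPM in B6 males to 0.397 to 1.11 CPM in C3 females and 0.928 to 2.45 CPM in C3 males. Its interaction was -3.62 (SE 0.50, adjusted p = 0.000386), and the call was kept in 13 of 20 fits without 1 liver, with an adjusted p of up to 0.00145 without C3 male 4. Both genes overlap annotated small RNA genes.

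On chromosome 4, 2610305D13Rik (chromosome 4 from 146986045 to 147016617, reverse strand) and Gm13152 (chromosome 4 from 146549975 to 146887529, forward strand) lie within 100 kb of each other. The first was at 0.138, 0.0804, 0.135, 0.0813 and 0.245 CPM in B6 females and 2.69, 5.08, 3.43, 2.27 and 9.02 CPM in B6 males, and at 3.24 to 4.44 and 2.09 to 3.77 CPM in C3 females and males. It was near absent from B6 females alone, with an interaction of 5.35 (SE 0.41, adjusted p = 3.87e-07). Gm13152 was at 5.32, 4.96, 6.56, 5.92 and 6.81 CPM in B6 males and 1.32, 1.23, 0.978, 1.19 and 1.28 CPM in B6 females, and at most 0.180 CPM in any C3 liver, where a library held at most 7 counts. Its interaction was 2.65 (SE 0.35, adjusted p = 0.00021). In both genes the sex difference within B6 was toward males, and in neither was one called in C3. Gm13152 overlaps Gm13139 and Znf41-ps on its strand, so the assignment of its reads is uncertain. The last place, on chromosome 11, holds Aatk and Slc25a10, the mitochondrial dicarboxylate carrier. Slc25a10 was at 151 to 266 CPM in B6 males, 100.2 to 161 CPM in B6 females, 75.5 to 107 CPM in C3 females and 76.1 to 105 CPM in C3 males, with an interaction of 0.74 (SE 0.11, adjusted p = 0.000708). Its call was kept in 4 of 20 fits without 1 liver, with an adjusted p of up to 0.00258 without C3 male 3. B6 males were the highest group for both, though at 100 kb only the places on chromosomes 4 and 12 remained.

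The major urinary proteins, which carry pheromones and are made by hepatocytes under growth hormone control, gave changes in both directions. All 20 members tested lie on chromosome 4 between 60016421 and 61811875 of mm9. Mup21 and Mup12 were called, both lower. Mup21 (chromosome 4 from 61808866 to 61811875, reverse strand) was at 838, 899.7, 1047, 1038 and 778 CPM in C3 males and 3.37, 2.5, 2.71, 3.51 and 3.93 CPM in C3 females, against 165, 251, 459, 216 and 427 CPM in B6 males and 20.3, 11, 15.8, 14.4 and 9.53 CPM in B6 females. All groups were separate, C3 having the highest males and the lowest females, and the interaction was -3.84 (SE 0.36, adjusted p = 4.28e-06). Mup12 (chromosome 4 from 60732254 to 60736153, reverse strand) was at 578 to 1038 CPM in C3 males and 1.62 to 8.86 CPM in C3 females, 81.6 to 202 CPM in B6 males and 3.85 to 20.9 CPM in B6 females, with an interaction of -4.14 (SE 0.50, adjusted p = 8.61e-05). At the wider threshold Mup14, Mup9, Mup18 and Mup1 were higher, and the list had a median of 0.20 with a median size of 1.08. Mup14, chosen after its values were seen, was at 216 to 585 CPM in B6 males and at most 1.69 CPM in any other liver, with an interaction of 7.04 (SE 1.29, adjusted p = 0.00411). This family holds near-identical copies, and read pairs with several places in the genome were left out by the authors, so the level of a single member is uncertain. How alike each member is to the others was not examined.

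Among cytochromes P450 of the Cyp2c and Cyp4 subfamilies, called genes also went both ways. These subfamilies and Cyp2a hold near-identical copies too, with the same uncertainty for single members. Cyp2c67 (chromosome 19 from 39683349 to 39723532, reverse strand) was at 1051, 952, 1557, 959 and 831 CPM in C3 males and 149.5, 166, 191, 314 and 219.8 CPM in C3 females, with 279 to 529 CPM in B6 males and 191 to 283 CPM in B6 females. C3 males were above every other liver, and the interaction was -1.76 (SE 0.20, adjusted p = 5.90e-05). Cyp2c44, an epoxygenase of arachidonic acid, was lower in C3 than in B6 in both sexes, at 331 to 604 CPM in B6 females, 275 to 534 CPM in B6 males, 35.4 to 54.8 CPM in C3 females and 40.5 to 84.1 CPM in C3 males. Its sex difference was called in neither strain, and its interaction was -0.69 (SE 0.10, adjusted p = 0.000668). The call was kept in 4 of 20 fits without 1 liver, with an adjusted p of up to 0.00259 without C3 female 1. Of 13 Cyp2c genes tested, 2 were called, both lower, and at the wider threshold Cyp2c39 and Cyp2c40 were higher. In the Cyp4 list of 15, Cyp4a10 was called higher and Cyp4f14, which hydroxylates leukotriene B4, lower. Cyp4f14 had 342 ± 31.3 CPM (SD, n = 5) in B6 females, 246 ± 29.8 CPM in B6 males, 288 ± 24.5 CPM in C3 females and 317 ± 30.7 CPM in C3 males, with an interaction of -0.66 (SE 0.090, adjusted p = 0.000337) that was kept in 18 of 20 fits without 1 liver, with an adjusted p of up to 0.00152 without C3 male 4.

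Among the 4 genes with C3 males highest, Kcnk1, a potassium channel, lay far above the other groups (chromosome 8 from 128519002 to 128554585, forward strand). It was at 2.90, 5.76, 5.18, 6.79 and 5.50 CPM in C3 males and did not exceed 0.650 CPM in any other liver, with an interaction of -4.27 (SE 0.56, adjusted p = 0.000201). Appl1, an endosomal adaptor protein that binds adiponectin receptors, was at 46.8 to 57.0 CPM in C3 males and at 24.0 to 36.6 CPM in C3 females. Its interaction was -0.61 (SE 0.087, adjusted p = 0.000485), kept in 8 of 20 fits without 1 liver, with an adjusted p of up to 0.00221 without C3 male 4. B6 males were lowest in Avpr1a, the vasopressin receptor of hepatocytes, at 29.8 to 59.1 CPM against 52.7 to 95.4 CPM in B6 females, 46.2 to 70.8 CPM in C3 females and 49.0 to 82.3 CPM in C3 males, with an interaction of -0.94 (SE 0.14, adjusted p = 0.000884). All ranges of Avpr1a overlapped, and its call was kept in 6 of 20 fits without 1 liver, with an adjusted p of up to 0.00341 without B6 male 1. Gimd1 also had B6 males lowest, at 0.790 to 1.53 CPM in B6 males, 2.19 to 3.74 CPM in B6 females, 2.64 to 5.14 CPM in C3 females and 2.75 to 5.45 CPM in C3 males, with an interaction of -1.28 (SE 0.19, adjusted p = 0.000775) that was kept in 4 of 20 fits without 1 liver, with an adjusted p of up to 0.00292 without C3 male 4. For Gimd1 the B6 males did not overlap any other group.

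In 16 genes no single group stood apart, among them Gm13152, Mup21, Mup12, Cyp2c44 and Cyp4f14. Ly6a, the surface protein Sca-1, was at 17.6, 14.6, 9.27, 17.3 and 27.4 CPM in B6 females and 5.64, 6.98, 8.33, 12.3 and 6.69 CPM in B6 males, and at 3.97, 6.23, 4.77, 8.62 and 5.19 CPM in C3 females and 27.6, 17.9, 14.3, 28.2 and 16.9 CPM in C3 males. Females were the higher sex in B6 on average and males in C3, without overlap in C3, and the interaction was -3.09 (SE 0.38, adjusted p = 8.63e-05). Sdc2, a heparan sulfate proteoglycan of the hepatocyte surface, had a small interaction, with a female minus male log2 difference of 0.29 in B6 and -0.26 in C3, neither past the threshold, and an interaction of -0.56 (SE 0.066, adjusted p = 7.53e-05). Ccl27a, a chemokine, and Unc13b, a factor of vesicle priming, were lower in C3 in both sexes, with interactions of 1.68 (SE 0.24, adjusted p = 0.000576) and 1.17 (SE 0.18, adjusted p = 0.000884). Kitl, the ligand of the receptor Kit, was likewise lower in C3 and had an interaction of 1.18 (SE 0.18, adjusted p = 0.000817). Of 20 fits without 1 liver, Ccl27a and Unc13b each kept the call in 4, with an adjusted p of up to 0.00259 without C3 male 3 and 0.00275 without C3 female 1, and Kitl in 3, with one of up to 0.00333 without C3 male 2.

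Of the 42 lists, 34 had no member called by edgeR and 20 had none at the wider threshold either, where 0.392% and 2.19% of all genes tested passed, so that short lists without a call are no result about their members. In these 34 lists, 149 of 646 genes had an unadjusted p under 0.05 (23.1%), against 16% of all genes tested. DESeq2 called 13 of them and limma on log2(TPM + 1) called 3, against 175 and 70 of all 13259 genes. Over all lists, 12 of 797 genes were called (1.51%), so 40 of the 52 genes lie outside the lists. The flavin monooxygenases, all 5 of which were sex-biased in both strains, had none called by edgeR, and neither had glutathione S-transferases (22 tested), serpins (31), complement (29), acute phase proteins (22) or bile acid synthesis and transport (27). In the complement list DESeq2 and limma on log2(TPM + 1) each called 1 gene. Growth hormone signalling had 30 members tested, of which 7 were sex-biased in B6 and 5 in C3, and none was called in the interaction by edgeR, while 6 had an unadjusted p under 0.05 (20%, against 16% of all genes), DESeq2 called 1 and limma none. At the wider threshold Lepr, the leptin receptor, was higher, with 6.18 CPM on average in B6 females, 3.02 CPM in B6 males, 17.6 CPM in C3 females and 2.55 CPM in C3 males, and Prlr, the prolactin receptor, was lower. Their interactions were 1.67 (SE 0.27, adjusted p = 0.00143) and -0.91 (SE 0.22, adjusted p = 0.0296). A p above the threshold does not show that a sex difference was equal in both strains.

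The heat shock and endoplasmic reticulum stress list had the lowest median of the lists, at -0.58 over 26 genes. No member was called by edgeR, DESeq2 or limma, and 10 had an unadjusted p under 0.05 (38.5%, against 16% of all genes). Its only gene at the wider threshold was Hspa1b, an inducible chaperone, at 23.7 to 107 CPM in C3 males, 0.985 to 4.68 CPM in C3 females, 4.04 to 52.2 CPM in B6 males and 1.71 to 11.7 CPM in B6 females, with an interaction of -3.45 (SE 0.89, adjusted p = 0.0422). C3 males lay above all females, and the B6 males ranged from within the females to within the C3 males.

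Of 11 lists of cell type markers, none had a member called by edgeR. Of their 44 genes tested, 12 had an unadjusted p under 0.05 (27.3%, against 16% of all genes), and DESeq2 called 2 and limma 1, against 175 and 70 of all 13259. Beside Cidec, S100a9 of the neutrophil list passed the wider threshold. Kupffer cell markers summed to 169 to 255 CPM in C3 males, 248 to 380.3 CPM in C3 females, 228 to 376 CPM in B6 males and 352 to 492 CPM in B6 females. Their part in the genes with C3 males lowest was not tested. Stellate cell markers summed to 345 to 388 CPM in C3 males and 495 to 622 CPM in B6 females, with the other groups between them. Hemoglobin genes held no count in any library. The authors left out read pairs that align to several places or overlap several genes. Whether this removed hemoglobin reads was not tested, so the blood content of the livers cannot be read from these counts.

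Sequencing pool was a term of the model, and each pool held livers of all groups. All 52 genes had an interaction of the same sign within each of the 3 pools, as had 289 of the 291 at the wider threshold, against 40% of all genes tested. The genes were chosen on these same livers, so this agreement adds no support to the calls. Pool 2 held only 1 liver each of B6 females, B6 males and C3 females. Within pools 1, 2 and 3 the interaction was 1.08, 0.93 and 1.04 for Tpmt, 1.68, 1.81 and 1.96 for BC089597, 2.01, 2.12 and 2.33 for Cd36 and -2.58, -4.75 and -5.37 for Mup12. Without any one liver, 26 of the 52 genes kept their call in all 20 fits, and the adjusted p of the others did not exceed 0.00384. Between 30 and 51 genes were called in these fits, with 34 without B6 female 1, 30 without B6 male 1, 31 without C3 female 1, 34 without C3 female 3, 32 without C3 male 1 and 31 without C3 male 4. Without a pool term 20 genes were called, and BC089597, Tpmt, Cyp2c67, Lgals1 and Mup12 were among those that lost their call. With limma on log2(TPM + 1), Tox, Vnn1, Cdpf1, Cyp4a10, Slc25a10, Cyp2c44, Avpr1a, Ccl27a, Unc13b and Kitl were among those that lost theirs.

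**Figure D5:**
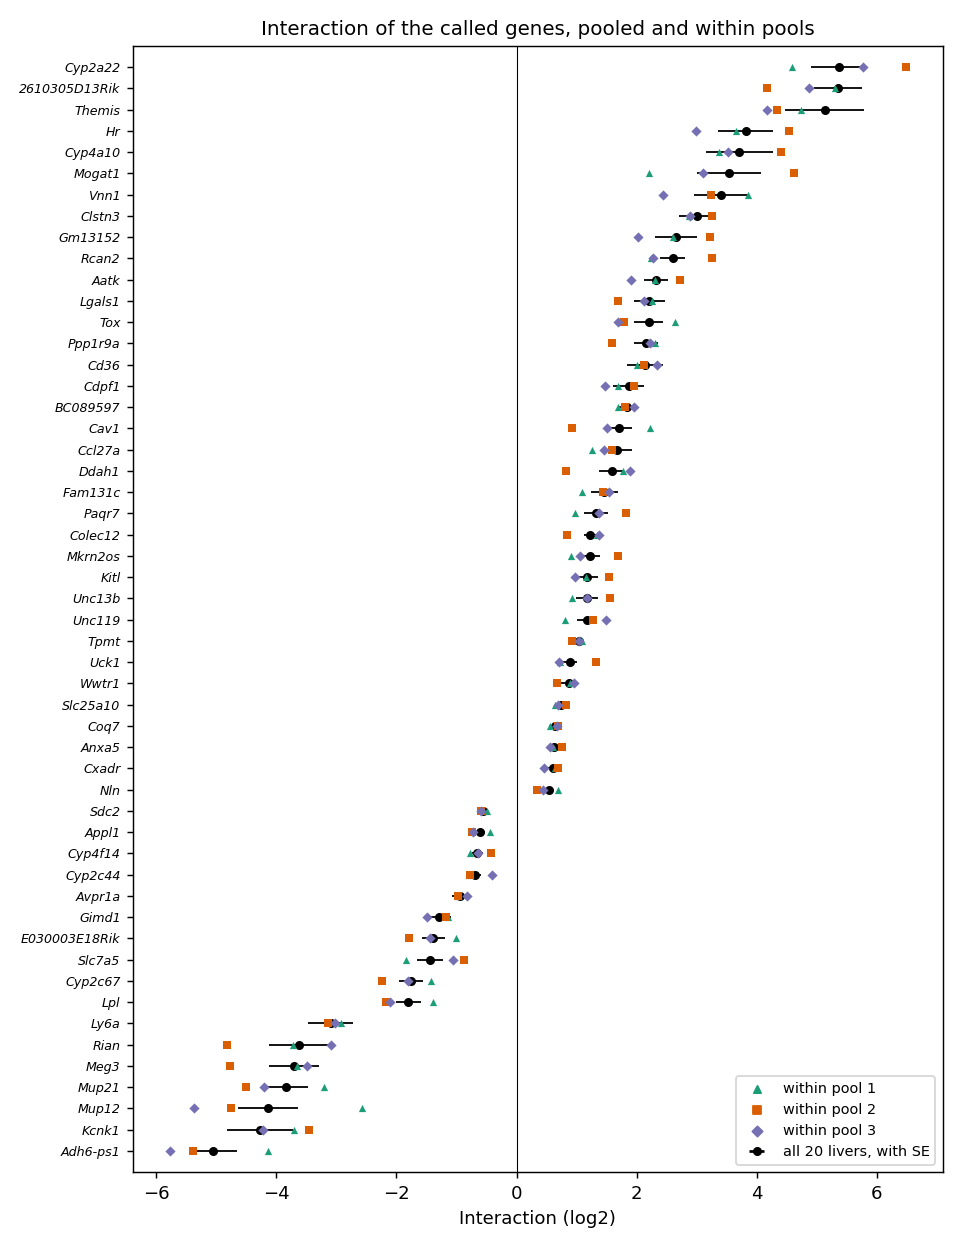
Interaction (x axis, log2) of the 52 called genes (rows) in all 20 livers, with its standard error, and the difference of group means within each of the 3 pools. All values of a gene lie on the same side of 0, and Mup12, Mogat1 and Cyp2a22 have the widest ranges over the pools.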

How the data were processed

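Total RNA from the liver of 20 mice was sequenced as paired-end, strand-specific libraries. According to the study's methods, reads were trimmed with Cutadapt 1.9.1, aligned to the mm9 genome with STAR 2.5.1b and counted over RefSeq genes with featureCounts (Subread 1.5.0-p1), leaving out read pairs that align to several places or overlap several genes. Reads of both strains were aligned to this 1 genome. Whether sequence differences between the strains changed the count of a gene in C3 or B6 was not tested. The authors deposited raw counts per gene, which are the values tested here, and TPM values per gene (scaled to transcript length and depth), used in an alternative. Coordinates are those of the count table, 1-based, and RefSeq promoters are from another build (GRCm38.p6).

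Counts were analysed with edgeR 4.0.16 in R 4.3.3. Libraries were scaled by TMM, genes were kept by filterByExpr with group as the factor, and a quasi-likelihood model with 4 groups and sequencing pool was fitted to all 20 livers and 13704 genes. The study's methods used DESeq2; here it is an alternative. Benjamini-Hochberg adjustment was over the 13704 genes, and a gene was called at an adjusted p under 0.001 and a log2 fold change beyond 0.5. Every adjusted p is from this test unless another tool is named. Genes on X and Y are not reported. The result of a single autosomal gene is left out as well. CPM values, the counts scaled to each library's size, are corrected by TMM, and standing apart was judged with a prior count of 2. A count of 3 corresponds to 0.0641 to 0.110 CPM by library, and this floor covers counting error only, since PCR copies were not told apart. The p-values measure the spread between mice of a group, which were housed singly.

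The members, gene lists and tests were chosen with earlier results of these data known. Values are given in full for the 8 called genes with the smallest p in each direction, 2 in each pattern of the group that stands apart, called neighbours within 500 kb and 2 called genes of each list, all with a group mean of at least 1 CPM. Lists with no such member could have 2 genes at an adjusted p under 0.05 named. Other called genes are named freely, and genes outside the rule are marked as chosen after their values were seen. On simulated data for the interaction, with 200 of 13704 genes changed, 116 were recovered at a log2 change of 1, 176 at 2 and 186 at 3, with no false call. The simulated counts held no effect of sex, strain or pool beyond the change set in C3 females. They therefore do not give the number of false calls in the real data. Alternatives were DESeq2 1.42.0, limma 3.58.1 on log2(TPM + 1) or log2(TPM + 0.1), other scalings, filters and thresholds, the model without pool or with replicate number, pool 1 alone, and each liver left out.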

Additional observations from a re-analysis of the deposited data

Results flagged for a closer look

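A liver stood apart from the other 4 of its group in 4 of 112 combinations of gene and group examined by Dixon's test, where chance gives about 1 in 20. Adh6-ps1 was at 0.721 CPM in C3 female 4, against at most 0.244 CPM in the other C3 females. Meg3 was at 1.14 CPM in the same liver, against at most 0.598 CPM. Rcan2 was at 17.5 CPM in C3 female 1, against at most 8.74 CPM in the other C3 females. Cyp2c44 was at 40.5 CPM in C3 male 4, against at least 73.4 CPM in the other C3 males. All 4 genes kept their call without the liver named. Over the 20 fits without 1 liver, Adh6-ps1, Rcan2 and Meg3 kept it in all 20 and Cyp2c44 in 4.

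The sex difference of the following genes differed between the strains by the interaction test itself, given on the log2 scale as C3 minus B6. Genes with C3 males or B6 males apart were BC089597 (1.83), Rcan2 (2.60), Colec12 (1.23), Vnn1 (3.41), Cd36 (2.14), Cyp4a10 (3.71), Aatk (2.32), Ppp1r9a (2.16), Slc25a10 (0.74), Mogat1 (3.54), Cyp2c67 (-1.76), Lpl (-1.80), Gimd1 (-1.28) and Avpr1a (-0.94). Those with a group of females apart were Tpmt (1.05), 2610305D13Rik (5.35), Cyp2a22 (5.37), Anxa5 (0.63), Adh6-ps1 (-5.05), Meg3 (-3.71) and Rian (-3.62). With no group apart they were Gm13152 (2.65), Mup21 (-3.84), Mup12 (-4.14), Ly6a (-3.09), Sdc2 (-0.56), Cyp4f14 (-0.66) and Cyp2c44 (-0.69).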

How the results depend on the processing

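The 52 called genes (35 higher, 17 lower, with 6 B6 female, 14 B6 male, 3 C3 female and 13 C3 male genes apart and 16 with none) changed in number with the test and threshold, and no named gene reversed. In the same order, DESeq2 called 175 (119 higher, 56 lower, with 24, 37, 21, 26 and 67), the model without pool 20 (13 and 7, with 2, 7, 2, 6 and 3), an adjusted p under 0.05 gave 291 (198 and 93, with 34, 54, 34, 48 and 121), and edgeR's glmTreat against a log2 change of 0.5 gave 24 (16 and 8, with 3, 7, 2, 8 and 4). Pool 1 alone, with 2 livers a group, called 0 genes by edgeR (0 higher and 0 lower, 0 in each pattern) and had 852 of 13259 at an unadjusted p under 0.05. With limma on log2(TPM + 1) the genes were 70, with 26 lower, 10 with B6 females and 10 with C3 females apart. C3 females stood apart in 8 genes with log2(TPM + 0.1), in 6 with log2(TPM + 1) and no filter, and in 10 with no filter on counts. Defined by calls, C3 males stood apart in 7 and no group in 25. Adding replicate number to the model as a block left 37 called genes, 23 of them higher and 8 with no group apart, and 33 of the 52 kept their call. Deviations from the group means in same-numbered livers of different groups had a mean correlation of -0.0239. Over the 30 pairs the correlation ran from -0.496 to 0.631, and 10 pairs were over 0.1. With pool removed the mean was 0.0324, and the pairs ran from -0.291 to 0.316. What the replicate numbers stand for is not given by the labels. Without 1 liver, 30 to 51 genes were called, 19 to 35 higher and 9 to 18 lower, with 3 to 8 B6 female, 8 to 15 B6 male, 2 to 7 C3 female and 7 to 14 C3 male genes apart and 6 to 17 with none. Of 1064 values of named genes over all alternatives and within each pool, 873 were the same, 191 kept the direction without the call and 0 reversed. The same means direction and call, except that values within a pool have no call and were judged on direction alone. With an adjusted p under 0.05 or no fold change limit, a call could not be lost. Of the 52 genes, 16 kept their call in all 14 settings other than pool 1 alone and the fits without a liver. The cause of these changes was not tested. Depth limits what can be read from genes near 0.110 CPM.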

Other observations

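Among the 239 genes past the wider threshold alone, C3 females stood apart as the highest group in 22 and C3 males as the lowest in 31, and 105 had no group apart. Of all 291, 86 were sex-biased in neither strain, 61 were male-biased in B6 and not in C3, and 53 were female-biased in C3 and not in B6.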
